A study of Mus musculus with 7 samples.

Results

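Epcam and 5 genes of the tetraspan PMP22 family, Emp1, Emp2, Emp3, Pmp22 and Perp, were followed in LSK bone marrow cells of mice with the label TRAF6 transgenic (n = 3) and of wild-type littermates (n = 4). These 6 genes were picked by name from 14860 distinct genes on the array, with results of the same genotype contrast already known, so their differences between the groups are given as a description and without a test. Each gene had 1 transcript cluster (the probes of a gene summarised to 1 value), so no choice between clusters was needed. All 7 mice were adult FVB animals that had received no treatment. LSK cells, the sorted fraction that holds most blood stem cells and early progenitors, carry Sca-1 and c-Kit and lack the markers of mature lineages. The promoter that drives the transgene is not given in the sources used here. Each mouse had 1 Affymetrix exon array, and the values are the authors' deposited log2 levels from RMA, a method that makes arrays comparable and sums up probes.

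EpCAM is a membrane glycoprotein that joins epithelial cells to each other, and in the mouse it is also found on thymocytes, Langerhans cells and early erythroid cells. The PMP22 family shares with the claudins a fold that crosses the membrane several times. Pmp22 encodes a protein of compact peripheral myelin, the Emp genes encode its close relatives, and Perp encodes a p53 and p63 target that takes part in cell death and, in mouse skin, in desmosomes, the junctions that anchor keratin filaments.

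The whole series sets limits on what these values can show. Array medians ran from 5.98 to 6.17 on the TRAF6 transgenic arrays and from 6.09 to 6.21 on the wild-type arrays, and TRAF6 transgenic 05 had the lowest. Traf6, the gene of the label, had log2 levels of 8.06, 8.14 and 7.52 on TRAF6 transgenic 03, 04 and 05, against 7.95, 8.20, 8.12 and 8.33 on wild type 21, 22, 23 and 24, so the array gave no check of the genotype. Whether the probes of this gene can read the transgene was not tested. The Y-linked genes Eif2s3y and Kdm5d averaged 2.99 ± 0.07 and 4.06 ± 0.26 on the TRAF6 transgenic arrays (SD, n = 3), against 8.44 ± 0.27 and 6.68 ± 0.23 on the wild-type arrays (SD, n = 4). The labels give no sex, but these 2 genes part the TRAF6 transgenic from the wild-type arrays as female and male mice would. Every difference below follows the same division of mice, so genotype and sex, as read from this signal, cannot be told apart. Nothing in the sources used here says that the littermates were matched in other ways, and 7 arrays limit the precision. In bulk RNA, fewer cells that make a transcript and less of it per cell cannot be told apart.

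The promoters of Epcam and Emp1 are shown because these genes had the widest gap between the groups. The sequences are RefSeq windows of 250 bases before to 50 bases after an annotated start site, on build GRCm38.p6. In Epcam the capitals mark the E-box CACCTG and its reverse complement CAGGTG, letters that repressors of the ZEB and Snail families can bind. In Emp1 they mark TGAGTCA, the reverse complement of the AP-1 motif TGACTCA.
Epcam, chr17:87635729-87636028, plus strand: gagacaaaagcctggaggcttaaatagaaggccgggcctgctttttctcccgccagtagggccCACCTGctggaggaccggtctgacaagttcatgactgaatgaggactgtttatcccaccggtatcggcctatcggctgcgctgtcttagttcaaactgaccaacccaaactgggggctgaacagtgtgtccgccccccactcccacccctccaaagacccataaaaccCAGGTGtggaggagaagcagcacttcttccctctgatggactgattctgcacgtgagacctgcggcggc
Emp1, chr6:135362681-135362980, plus strand: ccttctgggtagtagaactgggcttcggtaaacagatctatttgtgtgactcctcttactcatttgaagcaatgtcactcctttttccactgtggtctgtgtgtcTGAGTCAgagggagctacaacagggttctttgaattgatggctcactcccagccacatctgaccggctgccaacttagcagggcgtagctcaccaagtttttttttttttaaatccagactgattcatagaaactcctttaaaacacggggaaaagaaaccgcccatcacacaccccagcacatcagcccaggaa

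Epcam had a single window, and its matches began 187 and 19 bases before the start site. CACCTG, on either strand, is held by 20.2% of all 32851 promoter windows. The Emp1 match began 145 bases before the first of its 2 annotated start sites, and TGACTCA, on either strand, is held by 5.20% of all windows. Windows were found for 5 of the 6 genes, 10 in all, and neither motif was matched in those of Emp2, Emp3 and Pmp22. The GC box GGGCGG, held by 35.7% of all windows on either strand, was matched in Epcam, Emp1, Emp2 and Pmp22. In Emp2 it occurred 4 times, in a window of 65.7% G and C, against a median of 52.7% over all windows. Emp3 held TATAAA 40 bases before the start site in one of its 2 windows (13.6% of all windows hold it on either strand). CCAAT, held by 37.4% of all windows on either strand, was matched only in Pmp22, in 2 of its 4 windows. Overlapping matches of one motif were counted separately. A match is a run of letters and not a measured binding site.

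**Figure D1:**
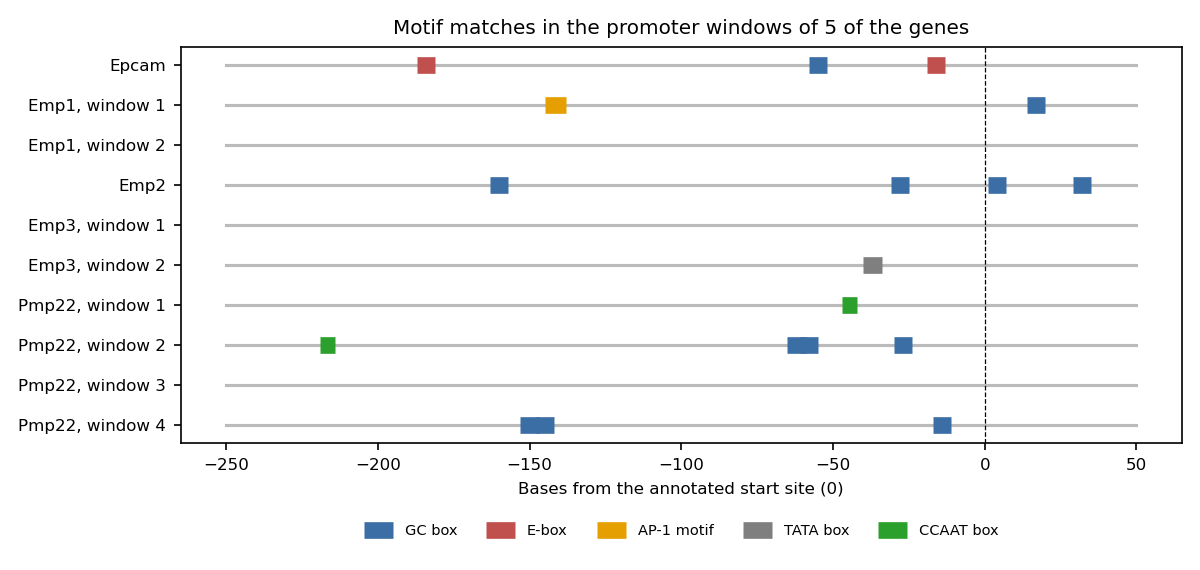
Positions of 5 motifs on either strand in the 10 promoter windows of Epcam, Emp1, Emp2, Emp3 and Pmp22, in bases from the annotated start site (dashed line at 0). Epcam is the gene with the E-box matches (187 and 19 bases before the start site), and Emp1 holds the AP-1 match at 145 bases before it.

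Epcam was lower on the TRAF6 transgenic arrays, with little spread inside either group. Its log2 level was 5.77, 5.78 and 5.74 on TRAF6 transgenic 03, 04 and 05, against 6.83, 6.73, 6.69 and 6.83 on wild type 21, 22, 23 and 24. The 3 TRAF6 transgenic values lay within 0.042 of each other and all 4 wild-type values above them. The means were 5.76 ± 0.02 (SD, n = 3) and 6.77 ± 0.07 (SD, n = 4), a difference of -1.01, or 2.01-fold lower in TRAF6 transgenic cells. The gap between the highest TRAF6 transgenic and the lowest wild-type array, 0.905, was larger than the range inside either group. The within-group SD of Epcam, 0.0587, was smaller than that of all but 1.55% of clusters, where the median cluster had 0.214. The TRAF6 transgenic and wild-type means lay above 45.1% and 60.2% of clusters. Without a detection call, whether the closely spaced TRAF6 transgenic values rise above background was not tested.

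Emp1 differed most among the 6 genes, and the TRAF6 transgenic mice varied more than the wild-type mice did. The level was 8.17, 8.61 and 8.07 on TRAF6 transgenic 03, 04 and 05, against 9.40, 9.41, 9.59 and 9.46 on wild type 21, 22, 23 and 24. Array 04 was the highest of the TRAF6 transgenic values and still stood 0.796 below the lowest wild-type value. The means were 8.28 ± 0.29 (SD, n = 3) and 9.47 ± 0.09 (SD, n = 4), a difference of -1.19, or 2.27-fold lower.

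Perp, the p53 and p63 target, varied more among the TRAF6 transgenic mice than Emp1 did. It had 6.38, 6.72 and 5.70 on TRAF6 transgenic 03, 04 and 05, against 7.35, 7.39, 7.38 and 7.27 on wild type 21, 22, 23 and 24. As for Emp1, array 04 was the highest and array 05 the lowest of the TRAF6 transgenic values, and the groups did not overlap. The means were 6.27 ± 0.52 (SD, n = 3) and 7.35 ± 0.06 (SD, n = 4), a difference of -1.08, or 2.11-fold lower. Array 05 carried part of it, since without that array the difference was -0.80.

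Emp2, a relative of Emp1 that acts on integrins at the membrane, had groups that overlapped. It had 5.69, 5.76 and 6.12 on TRAF6 transgenic 03, 04 and 05, against 5.996, 5.98, 5.92 and 5.88 on wild type 21, 22, 23 and 24. TRAF6 transgenic 05 was the highest of all 7 arrays and the other TRAF6 transgenic arrays were the lowest. The means were 5.86 ± 0.23 (SD, n = 3) and 5.95 ± 0.05 (SD, n = 4), above 46.8% and 47.3% of clusters, a difference of -0.087. Without TRAF6 transgenic 05 it was -0.22, and without 03 it was -8.83e-04.

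Emp3, a relative of Emp1 whose protein binds the P2X7 receptor for ATP, had 11.13, 11.14 and 10.996 on TRAF6 transgenic 03, 04 and 05, against 11.21, 11.18, 11.24 and 11.26 on wild type 21, 22, 23 and 24. All TRAF6 transgenic values lay below the wild-type values, by as little as 0.041. The means were 11.09 ± 0.08 (SD, n = 3) and 11.22 ± 0.03 (SD, n = 4), a difference of -0.13, and centring each array on its median left -0.075 with groups that overlapped. Emp3 resembled Epcam in its small within-group SD, which was below that of all but 1.31% of clusters.

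Pmp22, the myelin gene, varied less among the TRAF6 transgenic mice than among the wild-type mice. It had 6.04, 6.19 and 6.18 on TRAF6 transgenic 03, 04 and 05, against 6.45, 6.22, 6.37 and 6.65 on wild type 21, 22, 23 and 24. Wild type 22 came within 0.034 of the highest TRAF6 transgenic value, and the wild-type range was 0.433. The means were 6.14 ± 0.08 (SD, n = 3) and 6.42 ± 0.18 (SD, n = 4), a difference of -0.29, or 1.22-fold lower. The groups overlapped after quantile normalization and after centring on array medians.

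**Figure D2:**
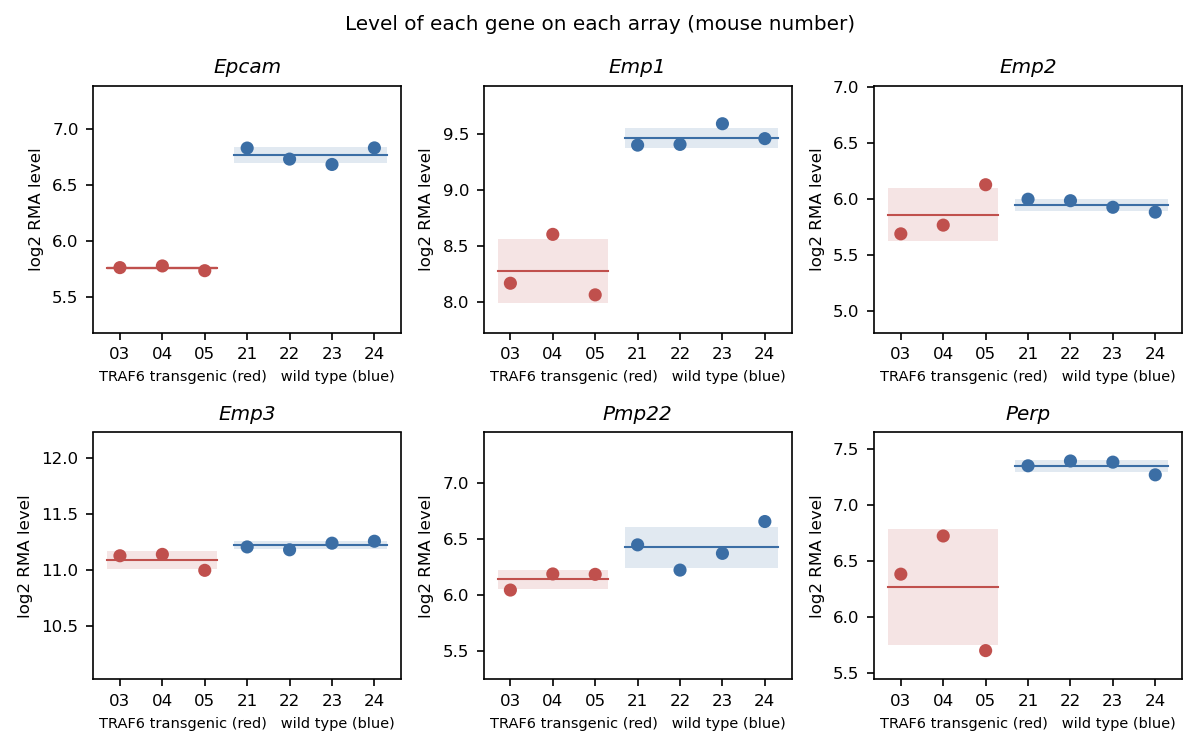
Log2 RMA level of each gene on each array, TRAF6 transgenic mice (03, 04, 05) in red and wild-type mice (21 to 24) in blue, with the group mean as a line and 1 SD as a band; every panel spans the same height on the log2 axis, centred on the gene. Epcam, Emp1 and Perp fall into well separated groups, Emp3 and Pmp22 separate by 0.041 and 0.034, and Emp2 overlaps.

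In all, 6 of 6 genes had a negative difference, 5 of 6 had groups that did not overlap with the TRAF6 transgenic arrays lower and 0 of 6 with them higher, and 3 of 6 were lower by 1 log2 unit or more. Over all 23332 clusters, 11742 had a negative difference. Groups did not overlap with the TRAF6 transgenic arrays lower in 5.18% and higher in 5.17% of clusters, and 1.01% were lower by 1 log2 unit or more. These shares are printed beside counts that the choice of genes fixed, and nothing is read from them. By the size of the negative difference Emp1 was 121st, Perp 177th and Epcam 227th of 23332 clusters. Without TRAF6 transgenic 05 the differences of Epcam, Emp1, Emp3 and Pmp22 were -0.998, -1.08, -0.087 and -0.31, and all 6 genes then had groups that did not overlap.

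The 3 genes with the wide gap had centred levels nearer to each other than to those of Emp2, Emp3 and Pmp22. Likeness was measured as the mean absolute difference between the log2 values of 2 genes on the 7 arrays after subtracting each gene's own mean, so that 0 is an identical profile. It was 0.157 between Emp1 and Perp, 0.159 between Epcam and Emp1 and 0.208 between Epcam and Perp. Emp2, Emp3 and Pmp22 lay between 0.118 and 0.150 from each other, and between 0.355 and 0.538 from the other three. The measure is not scaled, so it largely restates the size of the group differences, and nothing is read from it about shape. On array 05, Emp2 stood at 0.27 and Emp3 at -0.091 from their TRAF6 transgenic means.

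By the same measure, the 5 genes nearest to Epcam were Htr7, a serotonin receptor gene, at 0.105, Chl1, a neural cell adhesion gene, at 0.117, the cell cycle inhibitor gene Cdkn1a at 0.117, Phlda1 at 0.129 and Il10ra, the interleukin-10 receptor chain gene, at 0.131. Htr7 and Chl1 were measured at low signal, with means of 4.19 ± 0.14 and 4.01 ± 0.19 (SD, n = 3) on the TRAF6 transgenic arrays, against 4.99 ± 0.11 and 4.83 ± 0.13 (SD, n = 4) in wild type. Around Emp1 stood Bhlhe40, a transcriptional repressor gene, at 0.125, Cd74, the class II invariant chain gene, at 0.127, the costimulatory receptor gene Cd28 at 0.138, the interleukin-1 receptor gene Il1r1 at 0.139 and Rgs16 at 0.150. Bhlhe40 shared with Emp1 the high array 04 and low array 05, at 9.09, 9.39 and 8.51 on TRAF6 transgenic 03, 04 and 05, against 10.06, 10.11, 10.45 and 10.31 on wild type 21, 22, 23 and 24. Nearest to Perp were Gm7180 at 0.114 and the chemokine gene Cxcl2 at 0.132. For Emp2, Emp3 and Pmp22 the nearest were Cdk5r2 and Igfbp1, Phlda3 and Asb6, and Fbxl21 and Aoah, at 0.0195 to 0.0489. Like Emp2, Cdk5r2 and Igfbp1 were highest on TRAF6 transgenic 05, at 6.98 and 5.85. These profiles contain the genotype contrast that chose the genes and carry no test.

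**Figure D3:**
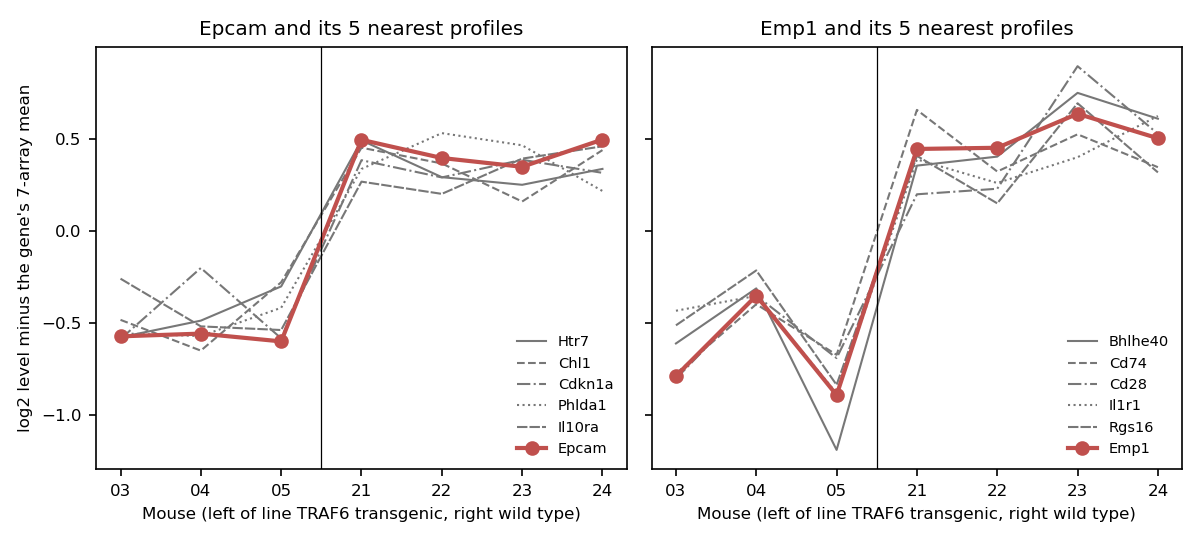
Log2 level minus the gene's own mean over the 7 arrays for Epcam (left, red) and Emp1 (right, red) with their 5 nearest genes in grey; the vertical line parts TRAF6 transgenic mice from wild-type mice. All the lines step down on the TRAF6 transgenic side, and on the right all 6 genes are lower on array 05 than on array 04.

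The partners of these proteins and the wider families were read from 8 lists, tested with limma over all clusters, in which 5 clusters passed at an adjusted p under 0.05, all lower (0.0214% of clusters lower, 0% higher). The Y-linked genes Eif2s3y and Kdm5d were 2 of the 5 (limma adjusted p = 1.82e-05 and 0.00528). These calls thus include the signal that cannot be told apart from genotype. No gene of the 8 lists passed. At unadjusted p under 0.05, 5.05% of all clusters were lower and 5.22% higher, and the median difference of all clusters was -0.0018.

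Among EpCAM partners and the enzymes that cut it, 0 of 15 measured genes passed in limma. At unadjusted p under 0.05, 1 was lower and 0 higher, where 5.05% of all clusters were lower and 5.22% higher. The median difference was 4.54e-04, and 0.15 without TRAF6 transgenic 05. The 1 gene was Cd9, a tetraspanin that binds EpCAM, at 8.68, 8.67 and 8.10 on TRAF6 transgenic 03, 04 and 05, against 8.93, 8.98, 8.90 and 8.77 in wild type 21, 22, 23 and 24. Its difference was -0.41 (SE 0.16, limma adjusted p = 0.453), and -0.22 without TRAF6 transgenic 05. Cldn7, the claudin that binds EpCAM in epithelium, overlapped between the groups at 5.47 ± 0.09 (SD, n = 3) and 5.62 ± 0.17 (SD, n = 4).

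In the claudin and PMP22 superfamily, 1 of 29 measured genes had groups that did not overlap with the TRAF6 transgenic arrays lower, where 5.18% of all clusters did, and 0 had them higher. That gene was Cldn4, a tight junction claudin, which had 6.92, 6.19 and 6.21 on TRAF6 transgenic 03, 04 and 05, against 7.65, 7.26, 7.43 and 7.90 on wild type 21, 22, 23 and 24. Cldn4 differed by -1.12 (SE 0.23, limma adjusted p = 0.283), which did not pass. In limma 0 of the 29 passed, 1 was lower and 0 higher at unadjusted p under 0.05, and the median was -0.024. The largest positive differences were those of Tmem47, at 0.52 (0.25 without TRAF6 transgenic 04 and 0.95 without 05), and of the endothelial claudin gene Cldn5, at 0.50 (0.77 without wild type 21), both with groups that overlapped.

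Desmosome genes bear on the role of Perp in mouse skin. The measured list held no desmoglein, desmocollin or desmoplakin gene, so its counts cover only part of the desmosome. Of 7 measured, 6 had a negative difference, where 11742 of 23332 clusters did. In limma 0 passed, and the median was -0.070. At unadjusted p under 0.05, 2 were lower and 0 higher, where 5.05% of all clusters were lower and 5.22% higher. Jup, which encodes plakoglobin, a linker of desmosomes and adherens junctions, had 7.64, 7.86 and 7.54 on TRAF6 transgenic 03, 04 and 05, against 8.44, 8.44, 9.03 and 9.01 on wild type 21, 22, 23 and 24. Jup thus stood at -1.05 (SE 0.20, limma adjusted p = 0.283). The wild-type values of Jup fell into a lower and a higher pair, both above all TRAF6 transgenic values. Pkp3, a plakophilin gene, differed by -0.32 (SE 0.11, adjusted p = 0.413), also without overlap. Over all clusters, 5.18% were lower without overlap.

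Perp is one of many p53 targets, and 26 of the listed genes were measured. In limma 0 passed, with 4 lower and 1 higher at unadjusted p under 0.05, and groups did not overlap in 6 lower genes and 1 higher gene. Over all clusters, 5.18% were lower and 5.17% higher without overlap. The median difference of the list was -0.060. Cdkn1a had 10.61, 10.995 and 10.61 on TRAF6 transgenic 03, 04 and 05, against 11.58, 11.49, 11.58 and 11.51 on wild type 21, 22, 23 and 24. Its difference was -0.80 (SE 0.13, limma adjusted p = 0.279). Gadd45a, a stress-response gene, stood at -0.60 (SE 0.12, adjusted p = 0.283), Mdm2, the ubiquitin ligase that restrains p53, at -0.38 (SE 0.14, adjusted p = 0.442) and Trp53inp1 at -0.34 (SE 0.16, adjusted p = 0.523). The other lower genes without overlap were Bbc3 (-0.32) and Phlda3 (-0.10), and the higher gene was Pidd1 (0.27). Without TRAF6 transgenic 05, Mdm2 stood at -0.24 and Trp53inp1 at -0.19, and the median of the list was 0.0052.

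Binding partners of the EMP proteins and Pmp22 gave 0 passes among 13 genes in limma and a median of -0.071. Of their differences 7 were negative and 6 positive. At unadjusted p under 0.05, 2 were lower and 0 higher, where 5.05% of all clusters were lower and 5.22% higher. Tgfbr2, the type II TGF-beta receptor gene, differed by -0.72 (SE 0.20, limma adjusted p = 0.364) and the kinase gene Src by -0.27 (SE 0.09, adjusted p = 0.413), both without overlap. Over all clusters, 5.18% were lower without overlap. Tetraspanins, a separate family of proteins that cross the membrane several times, gave 0 passes among 20 genes and a median of -0.055. Of the tetraspanin differences 11 were negative and 9 positive, the highest at 0.24. At unadjusted p under 0.05, 7 were lower and 0 higher. The same 7 were lower without overlap, where 5.18% of all clusters were. Tspan2 stood at -0.62 (SE 0.16, adjusted p = 0.342), the leukocyte tetraspanin gene Cd37 at -0.47 (SE 0.12, adjusted p = 0.332) and Tspan9 at -0.36 (SE 0.11, adjusted p = 0.384). Besides Cd9, the others were Cd53, Cd81 and Tspan13, between -0.33 and -0.28. Both medians changed sign without TRAF6 transgenic 05, at 0.044 for the partners and 0.069 for the tetraspanins.

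Transcription factors listed as repressors of Epcam or the Emp genes, most of them of the ZEB and Snail families, gave 0 passes among 5 genes in limma. At unadjusted p under 0.05 there were also 0. Whether any of them binds the E-box letters marked in the Epcam promoter was not tested. Zeb2 had 8.72, 8.64 and 8.54 on TRAF6 transgenic 03, 04 and 05, against 8.39, 8.42, 8.52 and 8.51 on wild type 21, 22, 23 and 24. Its groups did not overlap, where 5.17% of all clusters were higher without overlap. The difference of Zeb2 was 0.17 (SE 0.10, limma adjusted p = 0.591). It was the 1 positive difference of the list, against 4 negative ones that reached -0.37, and the list median was -0.041. Zeb1 averaged 7.43 ± 0.18 (SD, n = 3) and 7.43 ± 0.11 (SD, n = 4), and the sign of its difference of -0.0014 changed under 4 alternatives.

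**Figure D4:**
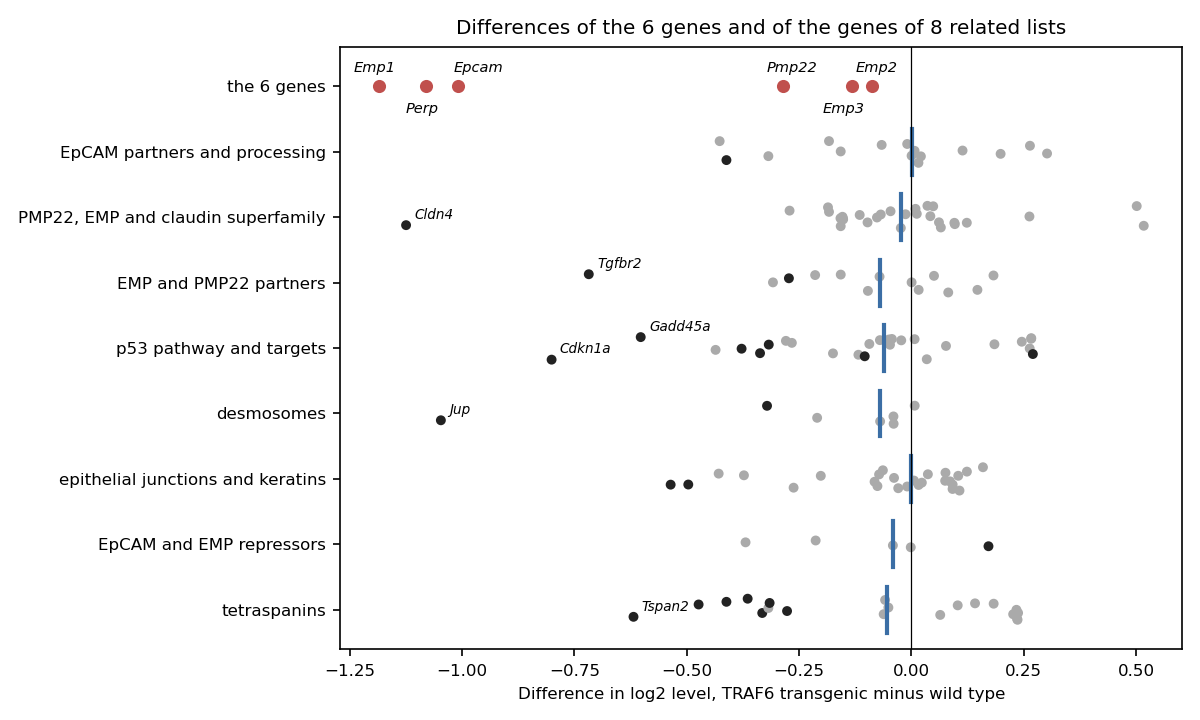
Difference in log2 level, TRAF6 transgenic minus wild type, of the 6 genes (red) and of each measured gene of the 8 lists, black where the groups do not overlap and grey where they do, with the list median as a blue bar. Most list genes lie near 0, and Cldn4 at -1.12 and Jup at -1.05 lie between Emp1 at -1.19 and Epcam at -1.01.

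Markers of epithelial cells were compared between the groups. Such differences cannot show whether epithelial cells entered the sort on the arrays of both groups, and this was not tested. Of 26 junction and keratin genes, 0 passed in limma, 2 were lower and 0 higher at unadjusted p under 0.05, and the median was -0.0018. The 2 were Ovol2, an epithelial transcription factor gene, at -0.54 (SE 0.15, limma adjusted p = 0.354), and Krt18 at -0.50 (SE 0.21, adjusted p = 0.477). Krt18, a keratin gene, had 9.66, 9.41 and 8.78 on TRAF6 transgenic 03, 04 and 05, against 9.81, 9.69, 9.96 and 9.67 on wild type 21, 22, 23 and 24, and its difference was -0.25 without TRAF6 transgenic 05. Cdh1, the defining cadherin of epithelium, averaged 5.40 ± 0.02 (SD, n = 3) and 5.47 ± 0.08 (SD, n = 4), levels below which 38.9% and 39.2% of clusters lay. The TRAF6 transgenic and wild-type means of Krt18 lay above 93.0% and 95.8% of clusters. Over 9 measured epithelial markers the array mean ran from 5.30 to 5.37 on the TRAF6 transgenic arrays and from 5.42 to 5.62 on the wild-type arrays, with 5 of 9 differences negative. Cldn4 and Krt18 were the 2 without overlap, both lower, where 5.18% of all clusters were lower without overlap. The other 7 differed by -0.16 to 0.16, 4 of them positive, and their array means overlapped, at 4.53 to 4.68 on the TRAF6 transgenic arrays and 4.54 to 4.73 on the wild-type arrays. Cldn4 and Krt18 were set aside because they separated the groups, so nothing is read from the overlap of the rest. The part of these markers in the levels of the 6 genes was not tested.

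Among markers of blood cell types that can carry EpCAM or class II molecules, array means of the B cell and of the dendritic and Langerhans cell lists did not overlap between the groups, and those of the LSK and erythroid lists did. Kit and Cd34, which LSK cells carry, averaged 10.45 ± 0.27 and 10.995 ± 0.20 (SD, n = 3) on the TRAF6 transgenic arrays, against 10.50 ± 0.10 and 11.12 ± 0.05 (SD, n = 4) in wild type, levels above 98.0% of clusters or more. The other LSK markers named by the rule were Flt3 at -0.67 (limma adjusted p = 0.283) and Hlf at -0.57 (adjusted p = 0.413), or -0.32 without TRAF6 transgenic 05. Cd48, a leukocyte surface gene, stood at 0.55 (adjusted p = 0.413) and Slamf1 at 0.26 (adjusted p = 0.734; 0.053 without TRAF6 transgenic 03 and 0.54 without 05), both with overlap. Array means of the LSK list ran from 8.52 to 9.13 on the TRAF6 transgenic arrays, lowest on array 05, and from 8.93 to 9.14 in wild type. Early erythroid markers had 8 of 9 positive differences, where 11590 of 23332 clusters were positive, and a median of 0.26. Gata1 led at 0.61 (adjusted p = 0.279), then the water channel gene Aqp1 at 0.46 (adjusted p = 0.453), or 0.30 without TRAF6 transgenic 05. Array means of the erythroid list ran from 7.70 to 7.92 on the TRAF6 transgenic arrays and from 7.37 to 7.79 in wild type, and so overlapped. Dendritic and Langerhans cell markers averaged 6.22 to 6.34 on the TRAF6 transgenic arrays and 6.502 to 6.63 in wild type, with no overlap. In that list 6 of 10 differences were negative and 4 positive, and 4 were lower without overlap, where 5.18% of all clusters were. The 4 were Flt3 and the class II pathway genes Cd74 (-1.08, adjusted p = 0.227), H2-Aa (-0.92, adjusted p = 0.279) and H2-Ab1 (-0.80, adjusted p = 0.279). The positive ones lay between 0.024 and 0.41, with Clec9a higher without overlap (0.29, adjusted p = 0.488) and the chemokine receptor gene Ccr7 at 0.41 with overlap (adjusted p = 0.531; 0.21 without TRAF6 transgenic 04). Over the 6 genes other than the 4 lower ones, array means overlapped, at 4.86 to 5.05 on the TRAF6 transgenic arrays and 4.77 to 4.96 in wild type. B cell markers averaged 5.70 to 5.89 on the TRAF6 transgenic arrays and 6.06 to 6.42 in wild type, with Ebf1 at -1.43 (adjusted p = 0.279), Cd79a at -0.67 (adjusted p = 0.4002) and Pax5 at -0.66 (adjusted p = 0.283). In that list 5 of 7 differences were negative, while Cd79b, the partner chain gene of Cd79a, stood at 0.41 (adjusted p = 0.470) and Ms4a1, which encodes CD20, at 0.20 (adjusted p = 0.621; 0.12 without TRAF6 transgenic 05), both with overlap. Over the 4 genes other than Ebf1, Cd79a and Pax5, array means overlapped, at 5.79 to 5.99 on the TRAF6 transgenic arrays and 5.78 to 6.08 in wild type. In the dendritic and B cell lists the genes set aside were those that separated the groups with TRAF6 transgenic lower, while Clec9a was kept. Nothing is read from the overlap of the rest. The sort was meant to remove B and T cells. In each of these lists 0 genes passed in limma. At unadjusted p under 0.05 there were 2 lower and 1 higher among LSK markers, 0 lower and 2 higher among erythroid markers, 4 lower and 0 higher among dendritic and Langerhans markers, and 4 lower and 1 higher among B cell markers. Over all clusters, 5.05% were lower and 5.22% higher at that threshold. The part of these markers in the levels of Epcam, Emp1 and Perp was not tested.

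Array means of the remaining marker lists overlapped between the groups. T and NK markers ran from 5.12 to 5.25 on the TRAF6 transgenic arrays and from 5.19 to 5.38 in wild type, with Lat at -0.45 (limma adjusted p = 0.386) and Cd4 at -0.32 (adjusted p = 0.437). Of the T and NK differences 6 were negative and 2 positive, the highest at 0.21. Megakaryocyte markers ran from 8.52 to 8.94 on the TRAF6 transgenic arrays and from 8.83 to 8.96 in wild type, with the platelet chemokine genes Pf4 and Ppbp both at -0.52 (adjusted p = 0.370 and 0.390). Of the megakaryocyte differences 3 were negative and 2 positive, the highest at 0.18. Stromal markers ran from 4.94 to 4.97 on the TRAF6 transgenic arrays and from 4.91 to 5.11 in wild type, with Col1a2 at 0.39 and Cxcl12 at -0.19 (adjusted p = 0.413 and 0.537). Endothelial markers ran from 6.15 to 6.49 on the TRAF6 transgenic arrays and from 6.15 to 6.38 in wild type. Markers of Schwann cells, which make Pmp22 for myelin, ran from 5.67 to 5.83 on the TRAF6 transgenic arrays and from 5.64 to 5.88 in wild type. Those of monocytes, macrophages and neutrophils ran from 6.59 to 6.71 on the TRAF6 transgenic arrays and from 6.44 to 6.71 in wild type. No gene of these last 3 lists had groups that did not overlap. In limma 0 genes of these 6 lists passed. At unadjusted p under 0.05, 2 of 8 T and NK genes and 2 of 5 megakaryocyte genes were lower, and 1 of 9 stromal genes was higher. Over all clusters, 5.05% were lower and 5.22% higher at that threshold.

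**Figure D5:**
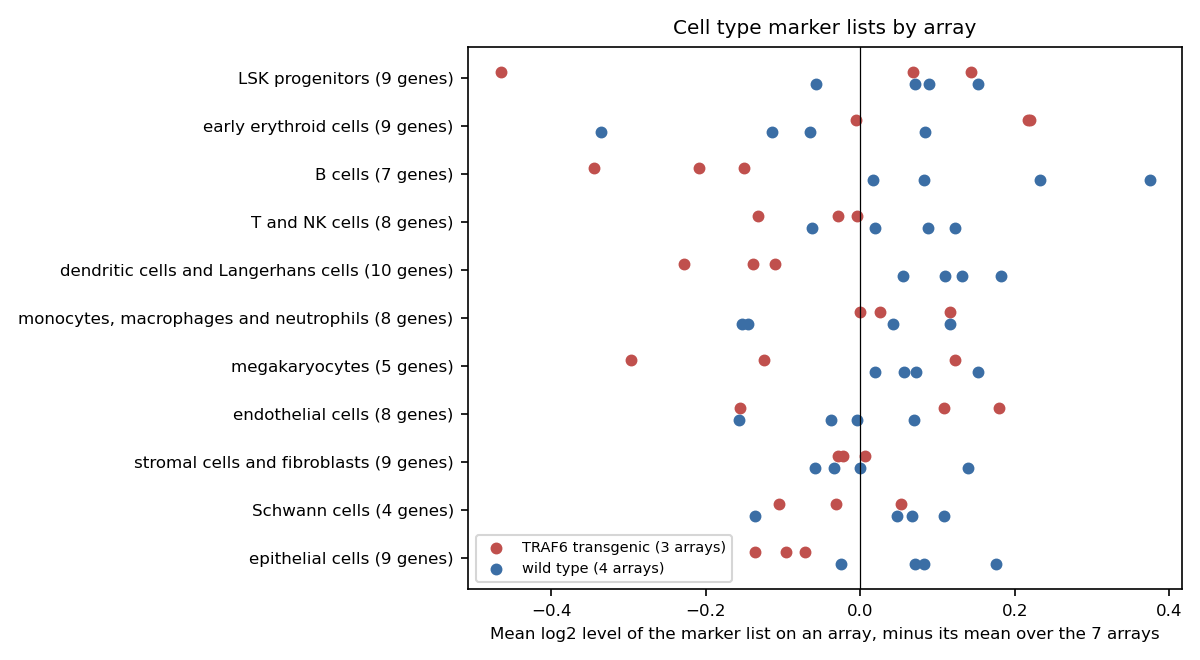
Mean log2 level of each cell type marker list on each array, minus the list's mean over the 7 arrays, for TRAF6 transgenic arrays (red) and wild-type arrays (blue). The B cell, dendritic and Langerhans cell, and epithelial lists separate with TRAF6 transgenic lower, and the other 8 lists overlap. Without the 3, 4 and 2 genes of the separating lists that are lower without overlap, their array means overlap too. Those genes were set aside for their separation on these arrays, so nothing is read from that overlap.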

How the data were processed

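RNA of LSK cells from 3 TRAF6 transgenic and 4 wild-type mice was measured on exon arrays. Values are deposited log2 levels that the authors obtained with RMA, and the build named is mm9, both per the submitters' processing notes. RMA settings were not given there. The log2 scale was read from the values. Of 23332 clusters, 14996 had 1 gene symbol, 1019 several and 7317 none; symbols were matched to RefSeq by Entrez number (55 unmatched).

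Differences are TRAF6 transgenic minus wild type. Tests used limma 3.58.1 (lmFit, eBayes) in R 4.3.3, two-sided, with genotype as the only term, no signal filter and Benjamini-Hochberg adjustment over all clusters (threshold 0.05). P-values measure only the spread between these samples. On simulated data of 23332 clusters, the test called 6 of 50 genes changed 1.5-fold, 30 of 50 changed 2-fold and 6 of 23132 unchanged clusters. The simulation also held 50 genes each at 4-fold and 8-fold, with independent normal noise. Its many calls ease the adjusted threshold, where the real data gave 5, so these rates do not carry over to the lists. Figures used matplotlib 3.10.9 in Python 3.11.15.

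The members and lists were chosen with earlier results of these data known. From each list the text names genes past the threshold and up to 4 with the largest difference among those whose groups do not overlap; the 5 nearest profiles of Epcam and Emp1 and the 2 nearest of each other member are named too. Kit, Cd34, Cdh1, Cldn7, Zeb1, Bbc3, Phlda3, Pidd1, Cd53, Cd81, Tspan13, Clec9a, Cd79b, Ms4a1, Ccr7, Cd48, Slamf1, Tmem47 and Cldn5 were named outside this rule, after their values were seen. Protein sequences were not used here. Alternatives were quantile normalization, median centring, a filter at the 40th percentile of mean signal, array weights, a trended robust prior, 1 cluster per gene and leaving out each array.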

Additional observations from a re-analysis of the deposited data

Results flagged for a closer look

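Of 60 genes checked for a wild-type array far from the other three, 2 had one, where chance gives about 5%. Wild type 21 stood apart for Cldn5, at 4.72 against 3.66, 3.65 and 3.596 on wild type 22, 23 and 24, a gap of 0.941 of the range of the group. Wild type 24 stood apart for Clec9a, at 3.47 against 3.85, 3.81 and 3.84 on wild type 21, 22 and 23, a gap of 0.874 of the range. The 6 members were among the genes checked and had no such array.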

How the results depend on the processing

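The differences of Epcam, Emp1, Emp2, Pmp22 and Perp moved by less than their within-group SD under all 9 alternatives tried for them. That of Emp3 moved further under 1, centring on array medians, at -0.075. Groups did not overlap in 3 genes, Epcam, Emp1 and Perp, after centring, in 4 after quantile normalization and in 5 to 6 when 1 array was left out. Clusters called lower numbered 2 to 4 when 1 array was left out (2 without TRAF6 transgenic 05), and 0 were called higher under any of the 13 alternatives. Cd74 passed with 1 cluster per gene (-1.08, adjusted p = 0.0395; 0.0395 to 0.597 over the alternatives). Kdm5d missed without TRAF6 transgenic 05 (-2.53, adjusted p = 0.0641; 2.08e-04 to 0.0641). Of the list genes the text names, Kit and Zeb1, both near 0, changed sign. Kit was 0.0072 after centring, 0.051 with array weights and -0.16 to 0.097 when 1 array was left out. Zeb1 was 0.056 after centring, 0.048 with array weights and -0.088 to 0.088 when 1 array was left out. The cause was not tested.

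Without low-signal clusters, the medians of the claudin and PMP22 superfamily, desmosome and epithelial lists were -0.098, -0.21 and -0.17, where fewer genes are tested. After centring they were 0.034, -0.012 and 0.056, and the epithelial median was 0.034 after quantile normalization; the cause was not tested. Leaving out 1 array gave medians of -0.10 to 0.15 for EpCAM partners, -0.042 to 0.0029 for the superfamily, -0.14 to 0.044 for EMP and PMP22 partners, -0.18 to -0.053 for desmosomes, -0.029 to 0.029 for the epithelial list and -0.091 to 0.069 for tetraspanins. Averaging several clusters of a gene could not be tried, since each member has 1. No paired analysis was possible because the groups share no replicate numbers. Values near the floor of the array, such as those of Htr7 and Chl1, have no detection call here.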
